A study of Mus musculus with 2 samples.

Results

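The 9 microRNA (miRNA) genes described here make up 3 paralogous clusters of the mouse genome, and they were taken by their names in the GENCODE M21 annotation from the 2202 miRNA genes listed in each count file. The first cluster holds Mir99a, Mirlet7c-1 and Mir125b-2, the next holds Mir99b, Mirlet7e and Mir125a, and the last holds Mir100, Mirlet7a-2 and Mir125b-1. The tissue was left cerebral cortex, taken at 25 days of age from B6CASTF1/J males, a cross of C57BL/6J with the wild-derived strain CAST/EiJ, and its miRNAs were sequenced from total RNA. The labels name 2 biological replicates in 1 group, 1 library each, with no treatment and no engineered allele. They number the males separately but give both the same donor ID, so the spread between these libraries may in part be technical. The p-values of the exact binomial test used below cover counting error only and do not measure that spread. The data therefore give levels in this tissue and a comparison of the replicates, with no contrast between conditions.

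A miRNA gene is transcribed as a longer primary transcript, from which the enzymes Drosha and Dicer release a hairpin and then a short duplex of a 5p and a 3p arm. The arm loaded into an Argonaute protein guides repression of mRNAs that pair with its seed, bases 2 to 8 from its 5′ end. Clusters that join miR-99/100, let-7 and miR-125 are ancient in animals. The family let-7 and the founding member of the miR-125 family, lin-4, were found as timing genes of worm larvae, and in mammals let-7 and the RNA-binding protein LIN28, a target of let-7 and miR-125, restrain each other. In brain, let-7 and miR-125 rise as neural progenitors give way to neurons and glia. The miR-99/100 family is known for repressing the growth kinase mTOR.

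The mature 5p arms of 8 of the 9 genes are shown first because their seeds sort them into 3 families that cut across the clusters. Sequences are from RefSeq on GRCm38.p6, the assembly of mm10, and the seed is in capitals. The miR-99/100 family has the seed ACCCGUA, the let-7 family GAGGUAG and the miR-125 family CCCUGAG. A RefSeq mature entry for at least 1 arm was matched for each of the 9 genes. For Mirlet7a-2 that entry was the 3p arm, let-7a-5p is not printed, and the gene is placed in the let-7 family by its name.
miR-99a-5p: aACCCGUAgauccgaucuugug
miR-99b-5p: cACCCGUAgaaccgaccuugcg
miR-100-5p: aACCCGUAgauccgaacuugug
let-7c-5p: uGAGGUAGuagguuguaugguu
let-7e-5p: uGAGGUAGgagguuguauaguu
miR-125a-5p: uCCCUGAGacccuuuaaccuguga
miR-125b-5p: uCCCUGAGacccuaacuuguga
Counting from 1 at the 5′ end of miR-99a-5p, miR-100-5p differed from it by the single substitution U16A. The substitutions from miR-99a-5p to miR-99b-5p were A1C, U11A, U16C and U21C. From let-7c-5p to let-7e-5p they were U9G and G19A. The arm miR-125a-5p is 24 bases long and shares its first 13 bases with miR-125b-5p, which has 22. The seed ACCCGUA occurred in no other mature entry of the RefSeq table, whereas CCCUGAG was also found in Mir351, Mir6367 and Mir6394.

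The next arms are shown because they differ between genes that otherwise share an arm with another gene. The arm miR-125b-5p lies in both Mir125b-1 and Mir125b-2, and let-7c-5p lies in Mirlet7c-1 and in Mirlet7c-2, a gene outside the 3 clusters. Their 3p arms, and that of Mirlet7a-2, were each found in 1 miRNA gene only.
let-7c-1-3p: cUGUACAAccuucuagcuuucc
let-7a-2-3p: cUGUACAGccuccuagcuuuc
miR-125b-1-3p: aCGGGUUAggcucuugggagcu
miR-125b-2-3p: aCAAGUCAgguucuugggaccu
The longest stretch shared with another of the 2202 miRNA genes was 24 bases between Mir125b-1 and Mir125b-2. It was 23 bases between Mirlet7c-1 and Mirlet7c-2, and 23 between Mirlet7a-2 and Mirlet7a-1. In Mirlet7e the longest shared stretch was 17 bases, in Mir99a and Mir100 it was 16, in Mir125a 14 and in Mir99b 11. In the 5 members with these shorter stretches, each printed arm was held on its own strand by a single one of the 2202 miRNA genes.

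In each cluster the order along the plus strand was miR-99/100, let-7, miR-125, but the spacing differed widely. On mm10 chromosome 17 the Mir99b cluster was compact: Mir99b (ENSMUSG00000065396.1, 17830188 to 17830257) was followed after 94 bases by Mirlet7e (ENSMUSG00000105758.1, 17830352 to 17830444) and after a further 367 bases by Mir125a (ENSMUSG00000065479.2, 17830812 to 17830879). All 3 lie within Spaca6, a protein-coding gene for a sperm membrane protein. Mir99b and Mirlet7e are intronic there, and Mir125a falls in an exon of 1 of the 3 Spaca6 transcripts that span it. On chromosome 16, Mir99a (ENSMUSG00000065530.1, 77598936 to 77599000) and Mirlet7c-1 (ENSMUSG00000065557.3, 77599657 to 77599750) are 656 bases apart. Mir125b-2 (ENSMUSG00000065472.1, 77646273 to 77646343) lies a further 46522 bases along, and introns of the non-coding host gene Mir99ahg hold all 3. Mir125b-2 also overlaps an exon of C130023A14Rik, a transcript of unsettled class, and an intron of Gm11146 on the opposite strand covers Mir99a and Mirlet7c-1. On chromosome 9, Mir100 (ENSMUSG00000093011.1, 41531425 to 41531504) and Mirlet7a-2 (ENSMUSG00000092770.1, 41536716 to 41536811) are 5211 bases apart. Mir125b-1 (ENSMUSG00000093354.1, 41581926 to 41582002) follows after 45114 bases, and all 3 are intronic in the non-coding genes 3110039I08Rik and Gm49317. Mir125b-1 also falls in an exon of the sense-intronic transcript Gm28119, and Mir100 lies opposite an exon of the lincRNA Gm48742.

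**Figure D1:**
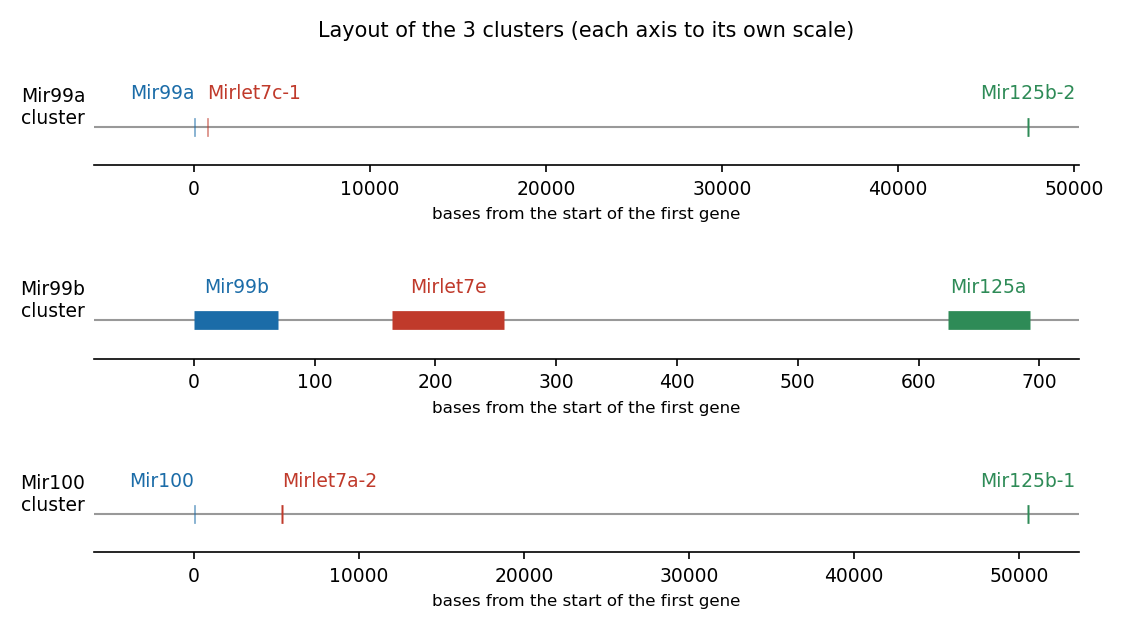
Position of the 9 genes in their clusters, in bases from the start of each cluster's first gene, with blue for miR-99/100, red for let-7 and green for miR-125. Each axis has its own scale: the gaps in the Mir99b cluster are 94 and 367 bases, while the miR-125 gene lies 46522 bases beyond the let-7 gene in the Mir99a cluster and 45114 in the Mir100 cluster.

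Own-strand counts summed to 2388379 in replicate 1 and to 4447390 in replicate 2. Levels are counts per 1000000 of these (CPM), with the mean ± SD of n = 2 libraries. The level that 3 counts give (1.26 CPM in replicate 1, 0.675 in replicate 2) lay far below that of each of the 9 genes. Reads with several matches went to no gene, and they were 48.6% (replicate 1) and 52.8% (replicate 2) of the reads that mapped. The counts of Mirlet7c-1, Mirlet7a-2, Mir125b-1 and Mir125b-2 are therefore minimum counts. Each count covers a whole gene, so reads of its 5p and 3p arms cannot be told apart. Intervals cover counting error only. With 1 library each, the animal and its library preparation cannot be told apart.

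Together the 9 genes supplied 6.25% of replicate 1 (6.22 to 6.28%, the exact Clopper-Pearson interval at 95%, as for the shares that follow) and 7.77% of replicate 2 (7.75 to 7.80%), a mean of 7.01% ± 1.08 (SD, n = 2). The compact Mir99b cluster supplied most of this, at 4.54% of replicate 1 (4.52 to 4.57%) and 5.85% of replicate 2 (5.83 to 5.87%). The Mir99a cluster held 1.25% (1.23 to 1.26%) and 1.42% (1.41 to 1.43%). The Mir100 cluster held 0.458% (0.449 to 0.466%) and 0.495% (0.488 to 0.501%). The order of the clusters was the same in both libraries, and their ranges did not overlap. The Mir99a and Mir100 clusters include Mirlet7c-1, Mir125b-2, Mirlet7a-2 and Mir125b-1, whose counts are minimum counts, and the Mir99b cluster includes none of them. This order is therefore one of counted reads only.

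Within the Mir99b cluster, Mirlet7e was the highest of the 9 genes. It had 70111 counts in replicate 1 and 124264 in replicate 2, which are 29355 and 27941 CPM, or 28648 ± 1000.0 (SD, n = 2). By mean CPM it ranked 8 among all 2202 genes, just after Mir744 (35575 ± 1297 CPM) and before Mirlet7d (25213 ± 14851 CPM). Its value in each library lay above every value of the other 8 members, some of which are minimum counts. Mir125a had 30645 and 75873 counts, or 12831 and 17060 CPM (mean 14946 ± 2991), and ranked 15. Mir99b had 7729 and 60157 counts, or 3236 CPM in replicate 1 against 13526 in replicate 2. Its mean of 8381 CPM carries an SD of 7276, the widest of the 9 relative to the mean, so its rank of 30 by mean describes neither library: it stood at rank 52 in replicate 1 and 19 in replicate 2.

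The Mirlet7e count rests on the strand. A miRNA gene without a family name, Gm25927, is annotated on the minus strand across Mirlet7e (chromosome 17, 17830343 to 17830459). On its own strand Gm25927 had 0 counts in both libraries, and the opposite-strand column of Gm25927 repeated the 70111 and 124264 counts of Mirlet7e. In the column that joins both strands, Mirlet7e and Gm25927 are both listed at 0. None of the 9 members had a count on the opposite strand in either library.

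In the Mir99a cluster, Mir99a had by far the most counts. It had 27480 and 59760 counts, or 11506 CPM in replicate 1 and 13437 in replicate 2 (mean 12471 ± 1366, rank 18). Mirlet7c-1 had 1263 and 1707 counts, or 529 and 384 CPM (mean 456 ± 103). Mir125b-2 had 1053 and 1821 counts, or 441 and 409 CPM (mean 425 ± 22.2). The values of these last genes overlapped, so no order between them can be given. Their counts are minimum counts, so low abundance cannot be read from them.

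In the Mir100 cluster, Mir100 had 7972 and 16012 counts, or 3338 and 3600 CPM (mean 3469 ± 186, rank 51), close together in the libraries. Mir125b-1 had 2493 and 5569 counts, at 1044 and 1252 CPM (mean 1148 ± 147). Mirlet7a-2 was the lowest of the 9, with 462 and 426 counts, at 193 and 95.8 CPM (mean 145 ± 69.0, rank 190). Its counts and those of Mir125b-1 are minimum counts, so its place as lowest describes counted reads only.

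By mean CPM the 9 genes were thus ordered Mirlet7e, Mir125a, Mir99a, Mir99b, Mir100, Mir125b-1, Mirlet7c-1, Mir125b-2 and Mirlet7a-2. Neighbours whose libraries overlapped were Mir125a and Mir99a, Mir99a and Mir99b, Mir99b and Mir100, and Mirlet7c-1 and Mir125b-2. The other 4 steps in this order did not overlap. Of these, only the step from Mirlet7e to Mir125a involves no gene with a minimum count, and the rest order counted reads only. Per 100 bases of annotated gene, Mir125b-2 (599 CPM) came before Mirlet7c-1 (485 CPM), and the other 7 kept their places. The 4 genes with a copied stretch ranged from 95.8 to 1252 CPM and held 0.221% of counts in replicate 1 and 0.214% in replicate 2. The other 5 ranged from 3236 to 29355 CPM, with no overlap. How many of the reads with several matches came from the 4 genes was not tested.

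**Figure D2:**
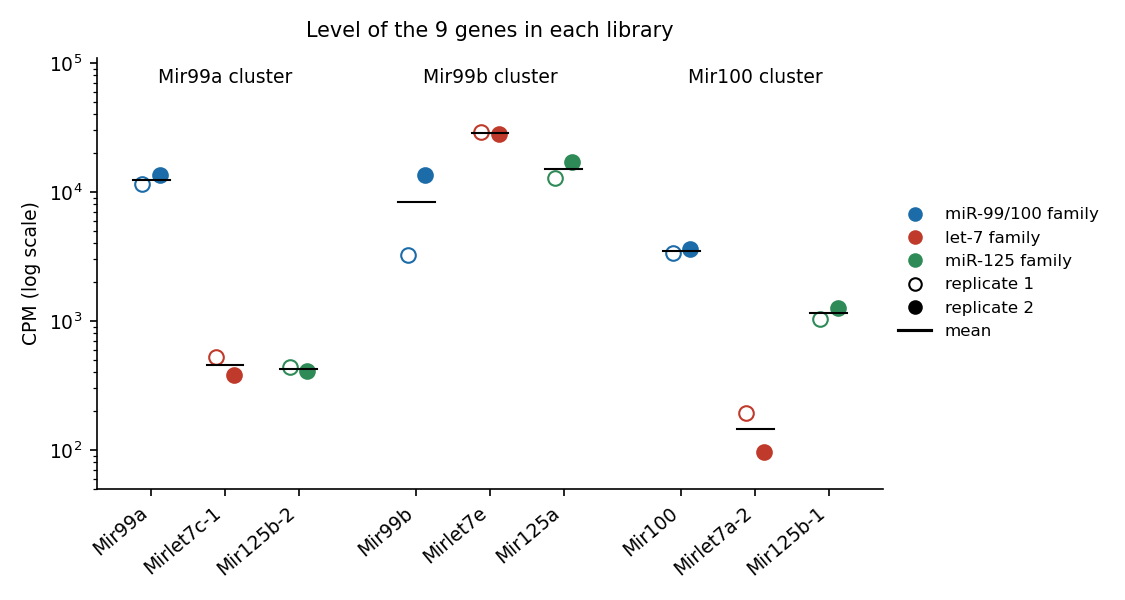
Level of each gene in CPM (log axis), by cluster, with open circles for replicate 1, filled circles for replicate 2, a bar for the mean and colours for the families. Mirlet7e is highest at 28648 CPM, Mirlet7a-2, a minimum count, is lowest at 145 CPM, and Mir99b has the widest gap, from 3236 to 13526 CPM.

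Grouped by seed, the miR-99/100 genes held 1.81% (1.79 to 1.82%) of replicate 1 and 3.06% (3.04 to 3.07%) of replicate 2. The 3 let-7 genes held 3.01% (2.99 to 3.03%) and 2.84% (2.83 to 2.86%), and the miR-125 genes 1.43% (1.42 to 1.45%) and 1.87% (1.86 to 1.88%). In the let-7 and miR-125 groups a single gene of the Mir99b cluster gave nearly all counts. Mirlet7e supplied 97.6% of the let-7 counts in replicate 1 and 98.3% in replicate 2. Mir125a supplied 89.6% and 91.1% of the miR-125 counts, with Mir125b-1 at 7.29% and 6.69% and Mir125b-2 at 3.08% and 2.19%. These shares leave out reads with several matches, such as reads of miR-125b-5p and let-7c-5p that match more than 1 gene. The counts of Mirlet7c-1, Mirlet7a-2, Mir125b-1 and Mir125b-2 are minimum counts, so the shares describe counted reads only. The miR-99/100 group was split more evenly. Mir99a gave 63.6% of it in replicate 1 and 44.0% in replicate 2, Mir99b 17.9% and 44.3%, and Mir100 18.5% and 11.8%. Mir99a thus led the family clearly in replicate 1 and stood level with Mir99b in replicate 2.

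**Figure D3:**
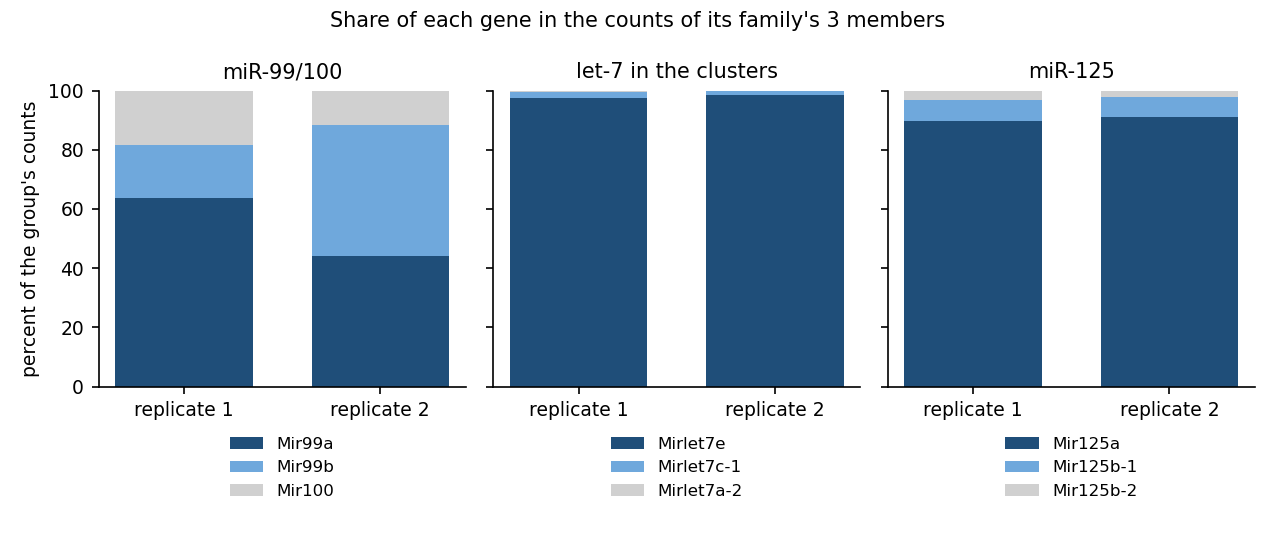
Percent of the counts of each family's 3 members that came from each gene, in each library. Mirlet7e and Mir125a fill most of their groups in both libraries, while the share of Mir99b is 17.9% in replicate 1 and 44.3% in replicate 2. The counts of Mirlet7c-1, Mirlet7a-2, Mir125b-1 and Mir125b-2 are minimum counts.

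Genes of the same families outside the clusters set these levels in context. Of the 11 other let-7 genes listed, all 11 were in the files and 10 had at least 10 counts in each library. They held 24.0% of counts in replicate 1 and 19.6% in replicate 2, led by Mirlet7g at 71794 ± 4709 CPM. Mirlet7e made up 10.9% and 12.5% of the counts of all 14 let-7 genes, those of the clusters included, with Mirlet7c-1 at 0.195% and 0.171% and Mirlet7a-2 at 0.0715% and 0.0428%. Reads with several matches are outside every one of these counts, so the shares describe counted reads only. The copy Mirlet7c-2 stood at 1561 ± 258 CPM and the copy Mirlet7a-1 at 361 ± 77.9 CPM, each above its member of the clusters in both libraries. Each copy shares a stretch of 23 bases with its member, so the counts of both copies are minimum counts too. Mir351, an X-linked gene with the miR-125 seed, was at 431 ± 11.2 CPM, within the range of Mir125b-2. Mir6367 and Mir6394 had 0 counts in both libraries. The miR-10 genes, relatives of miR-99/100 in the Hox clusters, were far lower: Mir10b was at 31.2 ± 0.965 CPM and Mir10a at 6.29 ± 0.011 CPM.

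The replicates were next compared gene by gene, to see where their counts differed by more than counting error. An exact conditional binomial test, two-sided and given the library totals, was run on the 392 genes that reached 10 counts in both libraries, with Benjamini-Hochberg adjustment over all of them. It compares these libraries and covers counting error alone. Of the 9 members 8 passed an adjusted p of 0.05, where 56.9% of all tested genes did. Higher in replicate 2 were 5 of the 9, against a background of 34.2%, and lower were 3 of the 9, against 22.7%. Higher counts make passing easier, and all 9 members reached 100 counts in both libraries. Of the 242 genes that did so, 194 passed when adjusted among themselves, 115 as higher and 79 as lower. In that set the members again gave 8 passing, 5 higher and 3 lower. The median log2 ratio (replicate 2 over replicate 1) was 0.11 over the 9 and 0.06 over all 392. Differences of over 2-fold were found for 2 members, Mir99b and Mirlet7a-2, and for 11.2% of tested genes.

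In the miR-99/100 and let-7 groups the 3 genes differed in the same direction, and in the miR-125 group they did not. All 3 miR-99/100 genes were higher in replicate 2: Mir99b by 4.18-fold, with a log2 ratio of 2.06 ± 0.017 (counting SE), Mir99a by a log2 ratio of 0.22 ± 0.011, and Mir100 by 0.11 ± 0.020. Mir100 passed with totals (adjusted p = 8.67e-08 in the exact binomial test) and with TMM scaling (log2 ratio 0.05, adjusted p = 0.0184), but not with DESeq2 size factors (0.04, adjusted p = 0.0545). The 3 let-7 members passed as lower with totals, TMM scaling and DESeq2 size factors, where 89, 99 and 102 of the 392 tested genes did, in that order. Of the 242 genes that reached 100 counts in both libraries, 79 passed as lower with totals. Mirlet7a-2 differed by a log2 ratio of −1.01 ± 0.097, Mirlet7c-1 by −0.46 ± 0.054 and Mirlet7e by −0.07 ± 0.007. Of the miR-125 genes, Mir125a (log2 ratio 0.41 ± 0.010) and Mir125b-1 (0.26 ± 0.035) were higher. Mir125b-2 had a log2 ratio of −0.11 ± 0.056 and did not pass (adjusted p = 0.0943, exact binomial test), but passed as lower with TMM scaling (−0.16, adjusted p = 0.00677) and with DESeq2 size factors (−0.17, adjusted p = 0.00430). The test of a difference between the families was not made.

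Outside the clusters, 9 of the 10 measured let-7 genes passed as lower in replicate 2 and 0 as higher in the exact binomial test, where 22.7% and 34.2% of all tested genes did, with a median log2 ratio of −0.34. This test covers counting error alone. Among the 242 genes that reached 100 counts in both libraries, 79 passed as lower and 115 as higher. Mirlet7d had the largest difference among them (−1.28), and Mir7j, with 39 and 57 counts, did not pass. Mir351 (log2 ratio −0.05), Mir10b (0.06) and Mir10a (0.00354) did not pass either.

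The differences were then set beside the spread between the libraries. Over the 242 genes that reached 100 counts in both libraries, the SD of the log2 ratio was 0.559, where counting alone gives 0.0765, and 7 of the 9 members lay within that SD. The share of the 242 genes within it was not computed, so this count is a description only. The exceptions among the members were Mir99b, the fourth highest log2 ratio of the 392 tested genes, and Mirlet7a-2, at place 13 from the lowest. In the exact test of edgeR with the common dispersion of this pair of libraries (biological coefficient of variation 0.311), 0 of the 9 members passed, where 0.765% of tested genes did, which is 3 of 392. At an unadjusted p under 0.05 the exact test of edgeR had 1 member, Mir99b (p = 0.00202, adjusted p = 0.198), and 19 genes in all. That dispersion was estimated from the same differences that it tests, with 1 library a side, so the test can call few genes and nothing is read from a gene that did not pass it.

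**Figure D4:**
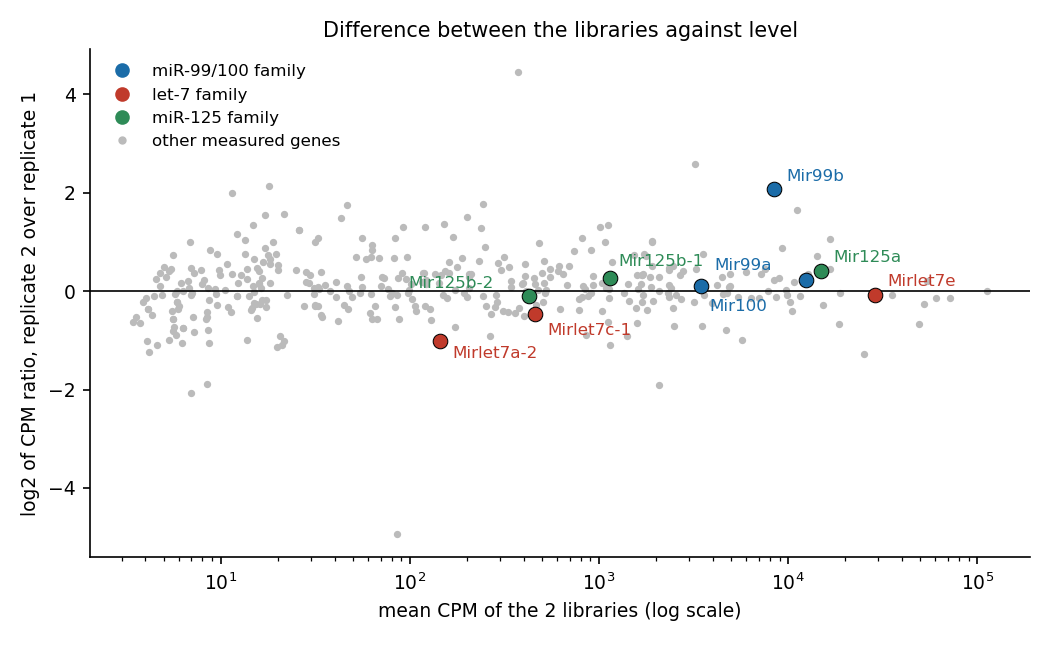
Log2 ratio of CPM, replicate 2 over replicate 1, against mean CPM (log axis) for the 392 measured genes, in grey, with the 9 members coloured by family. Mir99b stands at 2.06 and Mirlet7a-2 at −1.01, while the other 7 lie between −0.46 and 0.41.

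The sum of the 9 genes was 1.24 times as high in replicate 2 as in replicate 1, and Mir99b made up most of that difference. Without Mir99b the sum of the other 8 was 1.08 times as high, at 5.92% and 6.42% of counts. The Mir99b cluster changed 1.29-fold with Mir99b and 1.07-fold without it. The miR-99/100 group changed 1.69-fold with it and 1.15-fold without it. By contrast the miR-125 group, which it does not enter, was 1.31 times as high in replicate 2, and the 3 let-7 genes stood at 0.945 of replicate 1.

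Ratios of genes in a single cluster do not depend on how libraries are scaled, and genes of a cluster can share a primary transcript. Each ratio is of counts per gene, with no division by length. In the Mir99b cluster there were 0.110 counts of Mir99b per count of Mirlet7e in replicate 1 and 0.484 in replicate 2. That ratio was 4.39 times as high in replicate 2 (95% counting interval 4.28 to 4.50). The ratio of Mir99b to Mir125a was 0.252 and 0.793, a 3.14-fold change (3.06 to 3.23). The ratio of Mirlet7e to Mir125a moved less, from 2.29 to 1.64, to 0.716 of its value in replicate 1 (0.704 to 0.728). Mir99b thus changed relative to both of its neighbours, 94 and 554 bases away, and in replicate 1 it made up 7.12% of the cluster's counts against 23.1% in replicate 2.

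In the other clusters each ratio changed by less than those of Mir99b did. All of these ratios include Mirlet7c-1, Mir125b-2, Mirlet7a-2 or Mir125b-1, whose counts are minimum counts, so they describe counted reads only. The part of reads with several matches in their sizes and changes was not tested. In the Mir99a cluster, Mir99a outnumbered Mirlet7c-1 by 21.8 to 1 in replicate 1 and 35.0 to 1 in replicate 2, a 1.61-fold change (1.49 to 1.73). Mir99a outnumbered Mir125b-2 by 26.1 and 32.8 to 1, a 1.26-fold change (1.16 to 1.36). Mirlet7c-1 and Mir125b-2 were near parity, at ratios of 1.20 and 0.937, or 0.782 of replicate 1 (0.704 to 0.868). In the Mir100 cluster the ratio of Mir100 to Mir125b-1 was the steadiest of the 9 pairs, at 3.20 and 2.88, or 0.899 of replicate 1 (0.852 to 0.949). Mir100 outnumbered Mirlet7a-2 by 17.3 and 37.6 to 1, a 2.18-fold change (1.90 to 2.49). The ratio of Mirlet7a-2 to Mir125b-1 was 0.185 and 0.0765, or 0.413 of replicate 1 (0.359 to 0.475).

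For scale, the same change was computed for all 296 pairs of miRNA genes on 1 strand whose starts lie within 10 kb and which had at least 100 counts each in each library. These pairs come from 111 genes and share members, so they are a description. The median size of the log2 change was 0.44 and 90% of pairs lay below 1.23. At 2.13, the pair of Mir99b and Mirlet7e had the third largest change, after Mir376c with Mir376b (2.26) and with Mir381 (2.25). The pair of Mir99b and Mir125a was at place 10 (1.65), that of Mir100 and Mirlet7a-2 at place 39 (1.12), that of Mir99a and Mirlet7c-1 at place 96 (0.69) and that of Mirlet7e and Mir125a at place 137 (−0.48).

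**Figure D5:**
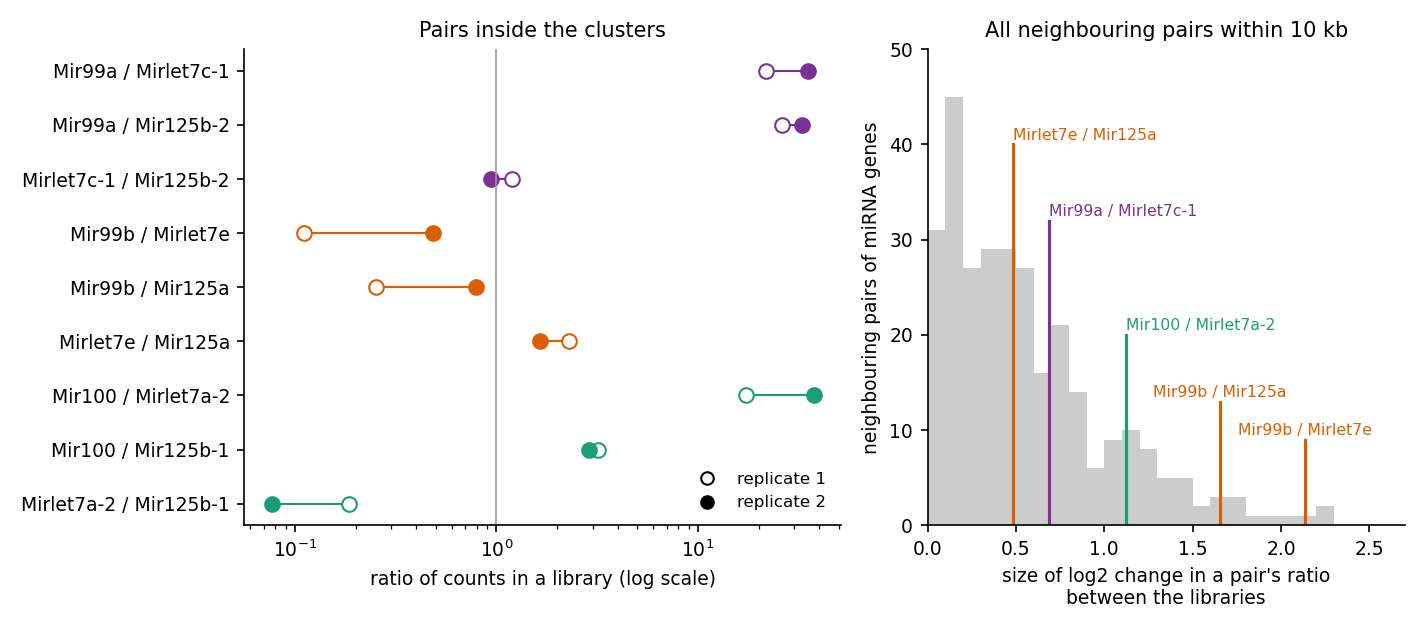
Left, ratio of counts for the 9 pairs inside the clusters (log axis), open circles for replicate 1 and filled circles for replicate 2. Right, size of the log2 change in the ratio for 296 neighbouring pairs of miRNA genes (bars, number of pairs in steps of 0.1), with coloured lines for the 5 pairs of members within 10 kb: Mir99b with Mirlet7e is at 2.13 and Mirlet7e with Mir125a at 0.48.

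Marker miRNAs were read for the tissue and for other cells that a dissected cortex can hold, and in bulk tissue fewer cells of a type and less RNA per cell cannot be told apart. All 14 neuron-enriched genes found in the files had a count in at least 1 library, 11 of them at 10 or more in both, and they summed to 105750 and 89810 CPM. Reads with several matches are outside these sums. Among these genes, Mir124a-1 had 9 counts in each library and Mir124a-3 had 1 and 8. Such sums hide genes of a list that went opposite ways. Of the neuron-enriched genes, Mir132 was at 60392 CPM in replicate 1 and 37793 in replicate 2, but Mir128-1 at 10802 and 17606. The endothelial and mural list (3 of 3 measured) summed to 16755 and 28010 CPM, the oligodendrocyte list (3 of 3) to 2726 and 3556 CPM, and the choroid plexus gene Mir204 was at 507 and 718 CPM. Of the endothelial and mural genes, Mir126a was at 10782 and 22504 CPM, but Mir143 at 5660 and 5238 and Mir145a at 312 and 268. The microglia and leukocyte list (5 of 5) stood at 2306 and 2493 CPM, the red-cell list (3 of 3) at 134 and 144 CPM and the epithelial list (5 of 6 measured) at 204 and 206 CPM. The epithelial, red-cell and oligodendrocyte lists also held genes that went opposite ways. Mir200b was at 21.4 and 71.3 CPM, but Mir200c at 28.9 and 14.4. Mir144 was at 15.5 and 36.4 CPM, but Mir486 at 30.6 and 24.7. Mir219a-2 was at 1345 and 2210 CPM, but Mir338 at 1373 and 1341. The liver gene Mir122 was at 54.0 and 57.6 CPM. The muscle list (1 of 5 measured) summed to 13.8 and 22.3 CPM, with Mir1a-1, Mir133a-1 and Mir133a-2 at 0 counts. The part of these lists in the differences of the 9 genes was not tested.

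With 2 libraries a pattern across samples is a single log2 ratio, so likeness between genes says little here. Among 233 other genes that reached 100 counts in both libraries, the closest log2 ratios to that of Mirlet7e (−0.07) were those of Mir335 and Mir744, both −0.07 and within 0.01. For Mir99a (0.22) they were Mir30c-1 (0.22) and Mir328 (0.23), and for Mir100 (0.11) Mir152 and Mir146 (0.11 each).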

How the data were processed

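The authors deposited raw read counts per miRNA gene on mm10 with GENCODE M21 annotation, per the readme files deposited with them. Which aligner and counter were run is not given in the sources used here. Each file opens with 4 entries that name no gene, which were kept out of totals and tests, and holds 3 count columns without a header, read from their values as both strands, own strand and opposite strand. Own-strand counts were used. Unmapped reads made up 31.6% of the 7935381 of replicate 1 and 18.2% of the 13482882 of replicate 2. Symbols, positions and hosts came from GENCODE M21, and sequences from RefSeq (GRCm38.p6). Copied stretches were searched among the transcripts of the 2202 genes, and no whole genome was searched.

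CPM, the exact binomial test over all genes that reached 10 counts in both libraries, and the ratio intervals (95%, normal approximation on the log scale) were computed with Python 3.11.15, SciPy 1.17.1, NumPy 2.4.6 and pandas 2.3.3, and the plots with matplotlib 3.10.9. With 1 group, no quasi-likelihood contrast exists. edgeR 4.0.16 (R 4.3.3) gave TMM factors and the alternative exact test, and DESeq2 1.42.0 gave size factors. The binomial test and its adjustment were checked on simulated data. The simulated counts had counting error only, without the added spread of these libraries. That check covers the calculation and says nothing about how the test behaves under such spread. The members and lists were chosen with earlier results of these data known. Named besides the 9 members were the leading gene of each related list, the other copies of a member's arm, the 2 closest log2 ratios to each cluster's most abundant gene and its neighbours in rank. Mir7j, Mir6367, Mir6394, Gm25927, Mirlet7d as the largest let-7 difference, and the pairs of Mir376c were named after their values were seen. So were the single genes given from the neuron-enriched, the endothelial and mural, the oligodendrocyte, the red-cell and the epithelial lists.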

Additional observations from a re-analysis of the deposited data

How the results depend on the processing

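The summed share of the 9 genes, 7.01%, stayed between 6.25% and 7.90% when either replicate was left out, when Mir139, the most abundant gene, was taken out of the total, and under TMM or DESeq2 scaling. With both strands counted together it was 4.50%, since Mirlet7e is then listed at 0. Of the 7 alternatives for the number of members that passed between the libraries, 6 gave 7 to 9. The exact test of edgeR with a common dispersion gave 0 of 9, with 0 higher and 0 lower, and 3 of all tested genes against 223; its dispersion comes from the differences it tests, so these counts say nothing about stability. TMM moved every log2 ratio by −0.06 and DESeq2 by −0.07. No log2 ratio of a member changed sign. The ratios inside clusters spanned their 2 libraries as given above. Both strands together left the 7 changes that could be computed as they were, with no value for the pairs of Mirlet7e. No member had an opposite-strand count, so these 7 changes could not differ and say nothing about stability. The mean CPM moved by more than its SD in 7 of 54 alternatives. The alternatives that left out a replicate could not do so, since with 2 libraries each value lies within the SD of the mean. That part of the count says nothing about stability. Per length, Mirlet7c-1 and Mir125b-2 changed places. No paired analysis was possible because all samples form 1 group. A match of each arm to the whole genome was planned and was not run. The lowest count of a member was 426, and reads with several matches are outside all counts.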
